A study of Mus musculus with 4 samples.

Results

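The cells described here were the macrophages with the strongest reading of 4 interferon-induced genes, Ifit1, Ifit2, Ifit3 and Rsad2, among 28290 CD45-positive cells sorted from MC38 tumors, a transplanted mouse colon carcinoma. A macrophage was a cell with at least 500 detected genes, at most 10% of its unique molecular identifiers (UMIs, the counted RNA molecules) on mitochondrial genes, a UMI of Csf1r, at least 0.2% of UMIs on C1qa, C1qb and C1qc, at most 2 UMIs of Cd3d, Cd3e and Cd3g, and at most 1 UMI of Ncr1 and Klrb1c. Of the 14139 macrophages in 4 libraries, the 10% with the largest share of UMIs on the 4 genes were taken, which gave 1413 cells. These are called interferon-response macrophages or members below, and the remaining 12726 are called other macrophages. Members were chosen by measured values of the same cells, so that the difference between members and other macrophages is given as a description without a test.

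Interferons are secreted proteins that cells release when they sense viral or misplaced nucleic acid. Type I interferons, among them interferon beta encoded by Ifnb1, bind the receptor Ifnar1 and Ifnar2, and proteins that include STAT2 and IRF9 then carry the signal to genes of antiviral defense. Interferon gamma, made mainly by T and NK cells, uses another receptor, and in tumor macrophages it is known for raising antigen presentation, nitric oxide synthase and the chemokine Cxcl9.

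Each of the 4 groups was 1 library of pooled tumors, labelled as batch 1, from C57BL/6 mice that carried a humanized CTLA-4 gene, a property that all groups shared, and the sample records do not state the age of the mice. According to the sample records, MC38 cells were inoculated under the skin, treatment started at tumors of about 100 mm3, 3 treatments were given and tumors of 11 mice per group were pooled on day 8, with ipilimumab, a human IgG1 antibody to human CTLA-4, at 10 mg/kg, the anti-mouse FcγRII antibody AT130-2 with the silent mouse IgG1 Fc N297A at 20 mg/kg, both antibodies in the combination, or isotype control at 10 mg/kg. For some of these conditions, antibody doses and tumor size at the start among them, the article gives other values. In the records of the CTLA-4 and FcγRII single-treatment libraries, title and treatment field name opposite antibodies. This conflict was not settled here, so these libraries are called, by their titles, CTLA-4-titled and FcgRII-titled and neither is described as the effect of its antibody. With 1 library in each group there is no replicate spread, so groups are compared without p-values: 95% intervals cover counting error only, and a treatment cannot be told apart from its library.

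The libraries held 178178393 UMIs for isotype, 129151823 for CTLA-4-titled, 142472286 for FcgRII-titled and 196362818 for the combination. In this order, which is used throughout, the median member had 15912, 20444, 20856 and 23551 UMIs and the median other macrophage 17646, 21755, 20986 and 24312. Members were thus slightly shallower than other macrophages in each library. No whole barcode occurred in more than 1 library. The first 16 bases of a barcode, which mark the droplet, were shared between libraries for 4461 of 23366 such sequences, and for 19 of the 1393 droplets that held members, with 1 probe barcode per library.

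Ifit1, Ifit2 and Ifit3 encode cytoplasmic proteins that bind foreign RNA, and Rsad2 encodes viperin, an enzyme that makes an antiviral nucleotide. Ifit2 (chromosome 19, 34550694 to 34576419, GRCm38), Ifit3 (34583531 to 34588731) and Ifit1 (34640871 to 34650009) lie in one cluster, and Rsad2 lies on chromosome 12 (26442746 to 26456452). Interferon type I acts on such genes through a promoter element whose core was searched here as GAAANNGAAA on both strands, in RefSeq promoter windows of GRCm38.p6 from 250 bases before to 50 bases after a gene's start. The stretches below show this core, in capitals, in 3 of the 4 rule genes and in genes that were high in the members. Each has 30 bases, reads 5′ to 3′ on the strand of the gene and holds the match nearest to the start that lies wholly before it.
Ifit1, chr19:34640794-34640823, plus strand: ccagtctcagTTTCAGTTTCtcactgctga
Ifit3, chr19:34583397-34583426, plus strand: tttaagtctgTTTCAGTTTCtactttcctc
Ifit3b, chr19:34607793-34607822, plus strand: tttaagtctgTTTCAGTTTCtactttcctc
Rsad2, chr12:26456553-26456582, minus strand: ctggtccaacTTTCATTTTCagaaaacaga
Isg15, chr4:156200865-156200894, minus strand: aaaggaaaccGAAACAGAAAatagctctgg
Cxcl10, chr5:92349083-92349112, minus strand: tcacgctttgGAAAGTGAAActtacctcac
Ifi208, chr1:173673597-173673626, plus strand: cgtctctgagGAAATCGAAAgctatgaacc
Stat2, chr10:128270266-128270295, plus strand: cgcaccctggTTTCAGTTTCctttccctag
The stretches of Ifit3 and Ifit3b were the same base for base. Among the other genes looked up, Ifit1bl1 and Ddx60, both high in members, also had the core, and their stretches are not shown. No match was found in the windows of Ifit2, Cmpk2, Tnfsf10, Oasl1, Slfn4, Isg20 and Ifi44, all high in members, nor in those of Ifnb1, Cxcl9 and Mki67. A missing match says only that these letters are not there.

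The 4-gene share ran without a break from 0 to 3.42% of a cell's UMIs, and the members are the upper range of it by construction. Since this share chose the members, it cannot decide whether they are a separate type. The cut fell at 0.0733%. The last member had 0.07326% and the first cell left out 0.07320%, with 16 UMIs on the 4 genes in both. Within 20% of the cut lay 143 members above and 194 other macrophages below it, and 235 members had at least 10 times the share at the cut. All 4 genes were detected in 1103 members (78.1%) and in 3.87% of other macrophages, of which 48.8% had no UMI of any. The 4 genes had a median of 47.0 UMIs in a member, and 16 members (1.13%) had fewer than 5. Members, 10% of the macrophages by construction, held 83.1% of all UMIs of these genes in macrophages, and Rsad2 gave 41.7% of the UMIs that chose them.

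Members made up 9.73% of 3825 macrophages in isotype (372 cells, exact binomial interval 8.80% to 10.7%). The share was 12.8% of 3146 in CTLA-4-titled (403 cells, 11.7% to 14%), 7.18% of 3985 in FcgRII-titled (286 cells, 6.39% to 8.02%) and 11.1% of 3183 in the combination (352 cells, 9.99% to 12.2%). CTLA-4-titled was the highest and FcgRII-titled the lowest, and their intervals do not overlap. Against isotype the ratio of shares was 1.32 for CTLA-4-titled (1.15 to 1.5) and 0.738 for FcgRII-titled (0.637 to 0.855), both beyond counting error. It was 1.14 for the combination (0.991 to 1.31), within counting error. The combination stood at 0.863 times CTLA-4-titled (0.755 to 0.987) and 1.54 times FcgRII-titled (1.33 to 1.79). Neither comparison of the combination with isotype or with CTLA-4-titled held its side of counting error under every setting. That with isotype went beyond it at the top 20% and when cells were first thinned to one depth (1.22 in both). It also did so without the highest doublet scores (1.15) and without Ifit3 (1.19). That with CTLA-4-titled was 1.00 at the top 20%. It fell within counting error after thinning (0.923), without the highest doublet scores (0.875), with C1q genes at 1% or more (0.856) and without Ifit3 (0.900). Thinning, to 8807 UMIs, left out the 1413 macrophages that were shallower.

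**Figure D1:**
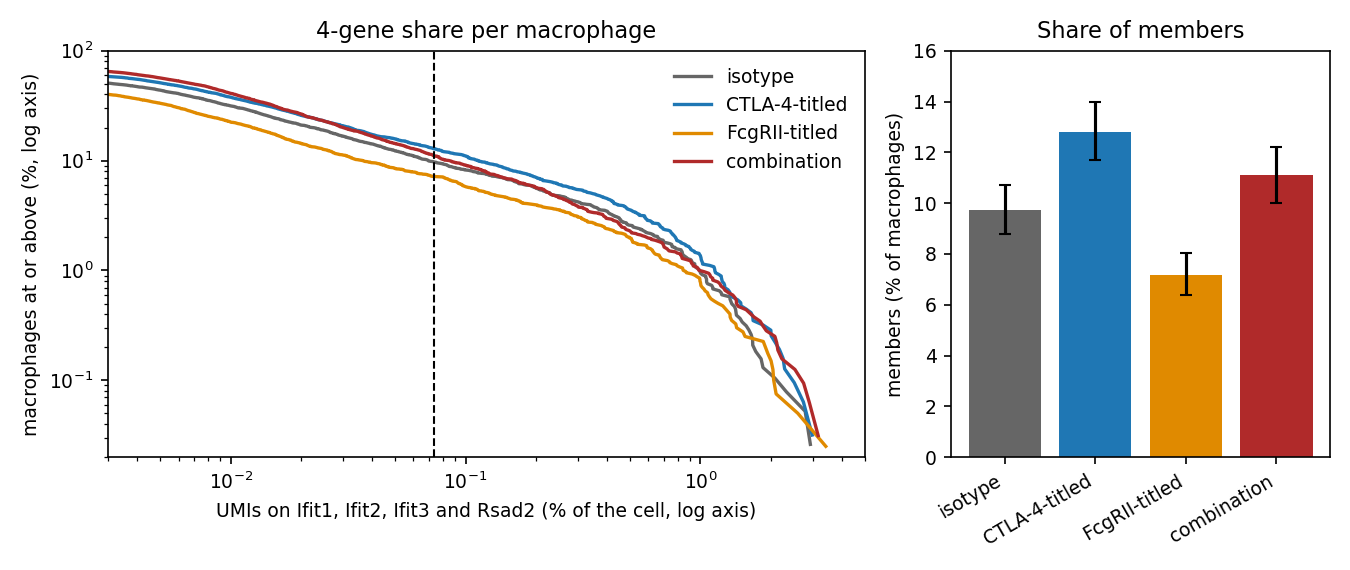
Left, share of macrophages (%, log axis) at or above each 4-gene share (% of a cell's UMIs, log axis) in the 4 libraries, with the cut at 0.0733% as a dashed line; right, members as % of macrophages, with exact binomial 95% intervals (counting error only). The curves fall without a step at the cut, and FcgRII-titled lies lowest there.

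RNA set free from broken cells gives UMIs in cells that do not make it, and T cells, which can also answer to interferon, were read for comparison. In T cells, taken as cells with at least 3 Cd3 UMIs and under 0.05% of UMIs on C1q genes, Rsad2 stood at 84.8, 90.3, 37.2 and 183 CPM (UMIs scaled to a total of 1000000), and 12.9%, 13.5%, 13.2% and 11.3% of T cells passed the same cut. The median T cell had no UMI of the 4 genes, at median depths of 4596, 5281, 4992 and 7332 UMIs. In members, which were chosen on this gene among others, Rsad2 stood between 1424 and 1697 CPM, and nothing is read from the gap.

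The label was checked against macrophage markers. All 9 reached the minimum level used below, and C1qa and Csf1r among them had entered the rule for a macrophage. Summed over the list the members had 28045, 29031, 29285 and 22421 CPM and the other macrophages 27826, 30409, 29970 and 23429 CPM, with Apoe, which encodes a lipid carrier, the most abundant. The median ratio of members to other macrophages was 0.95, 0.953, 0.939 and 0.889, and that over all 6969 genes counted was 0.910, 0.899, 0.903 and 0.920. The 6 T cell markers, with Cd4 the most abundant over the libraries, summed to 6.08, 10.3, 3.28 and 10.7 CPM in members, and the 4 NK cell markers to 3.40, 7.48, 0.597 and 3.08 CPM, with Gzma the most abundant in isotype and the combination, Prf1 in CTLA-4-titled and Klrb1c in FcgRII-titled, and Ncr1 at 0 in isotype and FcgRII-titled. The 7 dendritic cell markers summed to 58.9, 21.0, 28.1 and 31.4 CPM, with Fscn1 the most abundant in isotype and FcgRII-titled and Clec9a in the other two, and none reached the minimum level. Siglech, the defining marker of plasmacytoid dendritic cells, was at 0.142, 0, 0 and 2.97 CPM, while Bst2, on the same list and itself an interferon-stimulated gene, was at 1624, 1766, 1646 and 1575 CPM. The 4 B cell markers, mostly Ighm, summed to 226, 150, 91.9 and 56.8 CPM, and the 5 fibroblast or tumor cell markers to 5.94, 47.2, 154 and 2.42 CPM, with Krt8 the most abundant in CTLA-4-titled and Col3a1 in the other libraries. The rule for a macrophage itself kept Cd3d, Cd3e, Cd3g, Ncr1 and Klrb1c low, so that the T and NK cell sums are in part set by it.

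Summed UMIs of members were then set against those of other macrophages within each library, over genes with at least 20 CPM in either group of cells in every library, without the 4 rule genes and mitochondrial genes. A gene was called higher where its ratio was at least 2 in all 4 libraries and lower where it was at most 0.5 in all 4. Of 6969 genes, 93 (1.33%) were higher and 4 (0.0574%) were lower, and since members were chosen on genes of the same cells nothing is read from these shares. Of the 93, 46 were on a list of type I interferon-stimulated genes, 6 more were on another list and 41 were on no list.

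Of 57 type I interferon-stimulated genes with probes, 56 reached the minimum level. All 56 were above 1 in every library, 46 were called higher and none lower, and the median ratio was 3.96, 3.62, 5.07 and 3.00. Over all genes counted, 16.7% were above 1 in every library. The list summed to 27491, 28454, 27049 and 26162 CPM in members and to 9417, 10902, 7978 and 11294 CPM in other macrophages. The members were alike in this sum across libraries, and the ratio was smallest in the combination, where other macrophages had the highest level.

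The largest ratio that held in all 4 libraries was that of Ifit3b, at 129, 143, 172 and 91.4 CPM in members and between 1.81 and 2.93 CPM in other macrophages, at least 37.3-fold in each library. It is a near copy of the rule gene Ifit3, and Ifit1bl1, with a lowest ratio of 25.1, belongs to the same family, so that their values are uncertain where probes could share reads with a rule gene. Cmpk2, which encodes a mitochondrial nucleotide kinase and neighbours Rsad2, stood at 399 CPM against 12.5 in isotype, 355 against 10.3 in CTLA-4-titled and 534 against 9.62 in FcgRII-titled and 417 against 16.3 in the combination, where its ratio was lowest, at 25.5. In both Ifit3b and Cmpk2, members of every library stood above the other macrophages of all 4.

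Usp18 removes ISG15 from proteins and shuts down the type I receptor, and its ratios were 12.7, 11.0, 20.9 and 8.42. Isg15, which encodes the ubiquitin-like protein itself, stood at 1322 CPM in members of isotype and 1514 CPM in those of the combination, against 125 and 213 CPM in other macrophages, with ratios of 10.6, 10.2, 14.1 and 7.11. Oasl1, a brake on Irf7 translation, had a lowest ratio of 7.42. The death ligand Tnfsf10 (TRAIL) rested on lower levels, with 54.3 CPM against 4.57 in isotype, and its ratio was 11.9, 9.05, 22.7 and 7.09. In each of these genes the ratio was largest in FcgRII-titled and smallest in the combination.

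The remaining 8 of the 15 genes with the largest lowest ratio were Ifi208 with 7.72, Trim30c with 6.40, Slfn4 with 6.10, Ifi206 with 5.49, Isg20, an exonuclease gene, with 5.21, the helicase gene Ddx60 with 4.61, Cd69, an early activation marker of lymphocytes, with 4.60, and Phf11a with 4.49. Many of these belong to families of close copies (Ifi200, Trim30, Slfn, Phf11), whose members could share reads. Cd69 stood at 170, 153, 240 and 159 CPM in members and between 22.1 and 34.6 CPM in other macrophages.

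The other 10 genes of the list were not called. Ly6e, a membrane protein gene and the most abundant of the list, had the smallest ratios, at 3083 CPM in members and 2418 CPM in other macrophages of isotype, a ratio of 1.27, and at 1.19, 1.36 and 1.16 in the other libraries. Ifitm3, which blocks virus entry, had ratios from 1.54 to 1.78, and Bst2 (tetherin) from 1.66 to 1.92. These 3 genes stood below the ratio of 2 in every library.

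No receptor gene was called, and some carriers of the signal were higher. Ifnar1 had ratios of 0.859, 0.917, 0.917 and 0.988 and Ifnar2 of 1.00, 1.05, 0.974 and 1.13. Ifngr1, the ligand-binding chain of the interferon gamma receptor, was below the median of all genes in all 4 libraries, with 0.735, 0.689, 0.684 and 0.810. Stat2 had ratios of 3.62, 3.11, 4.43 and 2.70 and was called higher, and Irf9 had 1.48, 1.42, 1.61 and 1.36. Of 19 signalling genes counted, 3 were called higher and 0 lower, against 1.33% higher over all genes counted. Of the 3, Isg15 and Usp18 are also on the type I list. The median ratio of the signalling genes was between 1.08 and 1.17.

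Of 21 sensors and adaptors of nucleic acid sensing, 16 were above 1 in every library, against 16.7% of all genes counted. None was called lower and 4 were called higher, against 1.33% of all genes counted. The 4 were Ddx58 (RIG-I) with ratios of 5.23, 4.36, 6.14 and 3.41, Ifih1 (MDA5), which like RIG-I senses RNA in the cytosol, with a lowest ratio of 3.46, Ifi204, a DNA sensor gene, with 2.71, and Tlr9 with 2.09, of which all but Tlr9 are also on the type I list. Tlr3, the endosomal sensor of double-stranded RNA, had 3.06, 2.76, 3.38 and, just under the limit before rounding, 2.00. Tlr9, the endosomal sensor of DNA, was at 118 CPM in members and 49.5 CPM in other macrophages of isotype, and its ratio was between 2.09 and 2.49. Among the adaptors, Myd88, which serves Tlr7 and Tlr9, had ratios of 1.36, 1.34, 1.48 and 1.27, while Mavs had ratios from 0.745 to 0.873, Tmem173 (STING) from 0.922 to 1.08 and Ticam1 from 0.946 to 1.16.

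**Figure D2:**
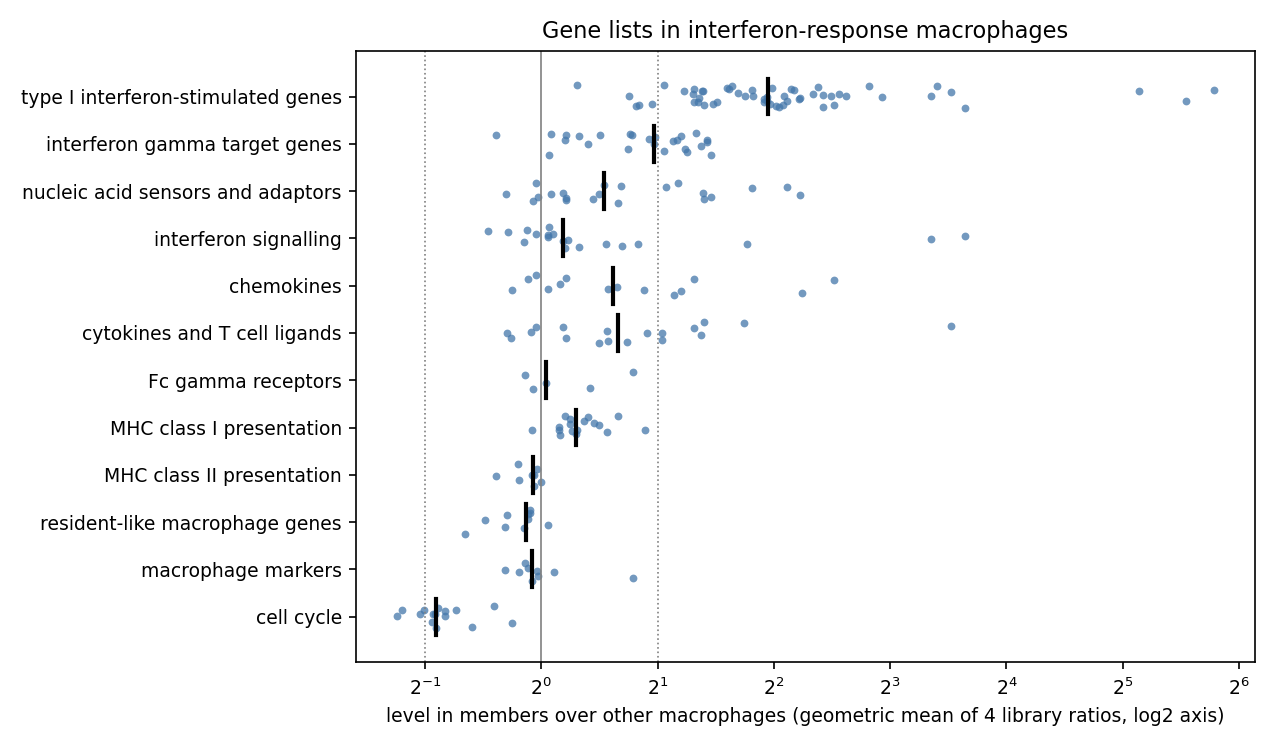
Each point is a gene of a list that reached the minimum level; the x axis (log2) is its level in members over that in other macrophages, as the geometric mean of the ratios in 4 libraries, bars are medians, and dotted lines mark ratios of 2 and 0.5. Type I interferon-stimulated genes lie furthest to the right, interferon gamma targets reach 2.75 for Gbp5, and cell cycle genes lie left of 1.

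Most interferon gamma target genes went in the same direction as the type I genes, with smaller median ratios. Of 25 counted, none was called higher in all 4 libraries and 23 were above 1 in every library, against 16.7% of all genes. The median ratio was 2.07, 1.70, 2.68 and 1.28. Gbp5, a guanylate-binding protein gene of inflammasome assembly, had ratios of 3.11, 2.44, 4.59 and 1.64, and Nos2, inducible nitric oxide synthase, of 2.89, 2.85, 4.13 and 1.52. Cd274, which encodes the checkpoint ligand PD-L1, stood at 310 CPM against 111 in isotype and at 786 against 409 in the combination, with ratios of 2.81, 2.66, 3.14 and 1.92. These genes were at least 2-fold higher in members in 3 libraries and fell short of it in the combination.

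Cxcl9 and Cxcl10, neighbours in the genome and ligands of the same T cell receptor Cxcr3, differed. Cxcl10 stood at 1223 CPM in members and 174 CPM in other macrophages of isotype and at 1590 and 533 CPM in the combination, with ratios of 7.03, 5.18, 9.75 and 2.99. Cxcl9 stood at 866 and 795 CPM in isotype and at 2224 and 2067 CPM in the combination, with ratios of 1.09, 1.10, 1.42 and 1.08. In cells thinned to 8807 UMIs, at least 3 Cxcl10 UMIs were found in 47.8%, 53.3%, 51.2% and 55.6% of members and in 10.4%, 14.5%, 7.85% and 24.9% of other macrophages. Without thinning these were 55.4%, 58.1%, 56.6% and 63.4% against 14.2%, 21.0%, 11.0% and 35.4%. Thinning left out 75, 50, 30 and 32 members and 465, 232, 324 and 205 other macrophages that were shallower, here and in the shares below. Cxcl10 thus set members apart in every library. The shares for Cxcl9 were 27.6%, 49.3%, 34.8% and 66.6% of members against 29.9%, 47.8%, 23.5% and 64.4%, and without thinning they were 32.5%, 54.6%, 40.2% and 72.4% against 34.5%, 54.0%, 27.9% and 74.1%. In T cells, with medians of 4596 to 7332 UMIs, the unthinned share with 3 Cxcl10 UMIs was at most 8.66% and with 3 Cxcl9 UMIs at most 17.1%.

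The master regulator of class II presentation, Ciita, had ratios of 0.898, 0.649, 0.843 and 0.692, and of 8 class II genes counted none was above and 3 were below 1 in every library, against 16.7% and 59.7% of all genes, with median ratios of 0.906, 0.909, 1.04 and 0.905. Cd74, the invariant chain and the most abundant of them, had ratios of 0.942, 0.935, 1.10 and 0.937. Of 17 class I genes, 16 were above 1 in every library and none was called. B2m, the light chain of class I, had ratios of 1.23, 1.24, 1.27 and 1.19, and Nlrc5, the activator of class I genes, had 2.07, 1.74, 2.44 and 1.36.

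In promoters, the core GAAANNGAAA was found in 3.99% of 27025 genes with a RefSeq window and in 43.5% of the 46 matched type I genes. It was in 39.2% of the 79 matched genes called higher and, among those on no list, in 34.3% of 35. Among the 17 matched interferon gamma targets it was in 58.8%. A match is a description of these letters and not of binding.

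Of the interferons themselves, 17 had probes and none reached 20 CPM in every library. Ifng, the gene of interferon gamma, was at 0.566, 5.92, 0.746 and 1.43 CPM in members, and Ifnb1 (chromosome 4, 88522025 to 88522774) at 22.5, 54.4, 10.6 and 8.48 CPM. Ifnb1 had 159, 487, 71 and 77 UMIs in members, in 16, 23, 11 and 7 cells, and 30, 21, 24 and 14 UMIs in other macrophages. The 57 members with an Ifnb1 UMI held 89.9% of all Ifnb1 UMIs of macrophages, and 35 of them had at least 5. Thinned to 8807 UMIs, 3.03%, 4.53%, 3.91% and 1.56% of members had an Ifnb1 UMI, against 0.201%, 0.159%, 0.0296% and 0.114% of other macrophages, and without thinning 4.30%, 5.71%, 3.85% and 1.99% against 0.434%, 0.292%, 0.0541% and 0.283%. Of 1483 T cells 2 had one. A single cell held 37.2% of the Ifnb1 UMIs of members in CTLA-4-titled and 41.6% in the combination, so that the summed levels of Ifnb1 are not compared between libraries.

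The members with an Ifnb1 UMI differed from the other members in more than Ifnb1, an observation made after the values were seen and on few cells. Levels below are sums over these 16, 23, 11 and 7 members, in which 1 cell can weigh heavily. Ccl4 (MIP-1β), a chemokine for T and NK cells, stood at 3731, 8634, 3296 and 11322 CPM in them and at 266, 321, 256 and 340 CPM in the other members, at least 12.9-fold higher in each library. Tnf stood at 872, 1925, 418 and 4776 CPM against 118, 148, 115 and 172 CPM. Tnfaip3, a brake on NF-κB, had ratios of 4.13, 5.49, 3.84 and 10.1, and the stress-induced Ppp1r15a of 5.73, 14, 5.55 and 19.4. Cxcl9 went the other way, with 480, 757, 273 and 110 CPM against 884, 1707, 983 and 2252 CPM, and Tnfsf10 was at 13.1, 2.52, 66.4 and 0 CPM against 56.2, 58.0, 66.2 and 49.4 CPM. The 4-gene share was also higher in these cells, with medians of 0.835%, 0.827%, 0.418% and 1.56% against 0.229%, 0.213%, 0.235% and 0.201%.

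**Figure D3:**
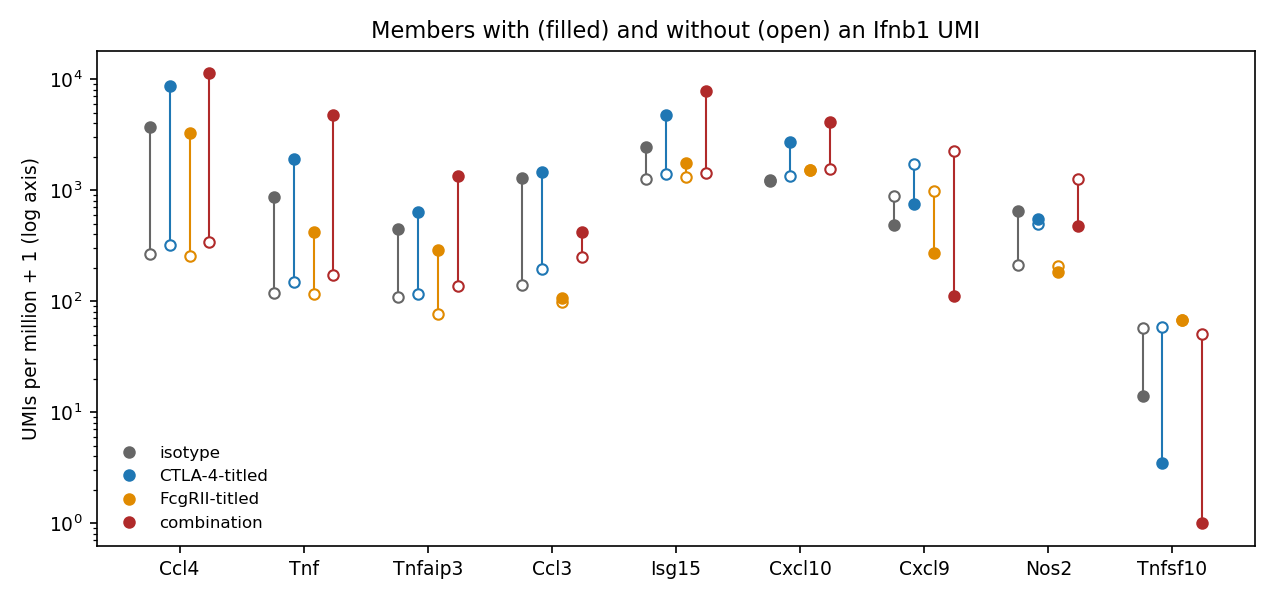
Summed levels (CPM plus 1, log axis) of 9 genes in members with an Ifnb1 UMI (filled, 16, 23, 11 and 7 cells) and in the other members (open), 1 pair of points per library. Ccl4, Tnf and Tnfaip3 are higher and Cxcl9 is lower in cells with Ifnb1 in all 4 libraries.

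Ccl4 over all members was called higher, with ratios of 4.33, 5.75, 3.51 and 5.79, and so was Il15, the cytokine that sustains NK and CD8 T cells, with 62.4 against 17.2 CPM in isotype and ratios of 3.62, 3.03, 3.94 and 2.89. Of 14 chemokines counted 2 were called higher, and of 18 cytokines and T cell ligands also 2, with none lower in either list. Over all genes counted, 1.33% were called higher. In each list 1 of the 2, Cxcl10 and Tnfsf10, is also on the type I list. Il15ra, which presents Il15, had ratios of 2.24, 2.33, 3.83 and 1.93, and the costimulatory receptor Cd40 of 3.01, 2.73, 3.16 and 1.87. Tgfb1 was below 1 in every library, between 0.803 and 0.845. Il12b, a cytokine of dendritic cells, was at 6.65 CPM or less.

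The Fcγ receptors bear on the antibodies of the study. Fcgr1, the high-affinity activating receptor, stood at 1132 against 643 CPM in isotype and at 1092 against 719 CPM in the combination, with ratios of 1.76, 1.68, 2.01 and 1.52. Fcgr4, another activating receptor, had ratios of 1.31, 1.33, 1.51 and 1.21. Fcgr3, also an activating receptor, had 0.919, 0.857, 0.914 and 0.952, below 1 in every library. Fcgr2b, the inhibitory receptor, was at 1242 CPM in members and 1236 CPM in other macrophages of isotype, with ratios of 1.01, 0.933, 0.913 and 0.963. Fcer1g, the signalling chain of the activating receptors, had 1.03, 1.05, 1.03 and 1.01. None of the 5 genes of the list was called.

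Genes of the cell cycle stood at low ratios in members. None of the 15 was called, and all 15 were below 1 in every library, where 59.7% of all genes counted were, and the median ratio was 0.507, 0.531, 0.568 and 0.540. Mki67 stood at 126 against 267 CPM in isotype and at 94.3 against 186 CPM in the combination, with ratios between 0.473 and 0.524. Thinned to 8807 UMIs, 22.6%, 22.9%, 20.7% and 21.2% of members had an Mki67 UMI, against 31.1%, 32.2%, 31.8% and 32.0% of other macrophages, and without thinning 30.9%, 31.8%, 29.7% and 32.1% against 37.2%, 42.5%, 40% and 44.9%. The 4 genes called lower, Anln, Prc1, Kif18b and Hmmr, and the next in order, Kif2c, Cdc20, Ncapd2, Ccna2, Foxm1 and Kif20a, all act in mitosis or in entry to it. Their highest ratios lay between 0.472 for Anln and 0.520 for Kif20a, so that the calls turn on the exact limit, and when libraries were scaled by the median of ratios over genes none passed it.

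Other macrophage states were not set apart by the 4-gene share. Spp1, osteopontin, a gene of tumor macrophages, had ratios of 0.978, 0.967, 1.02 and 1.15. Some genes that low oxygen induces had ratios above 1: Hilpda, of lipid droplets, had ratios of 2.12, 2.29, 2.36 and 2.73 and was called, Vegfa had 1.75, 1.73, 1.71 and 1.78, and Ndrg1 had 1.62, 1.58, 1.74 and 1.73. Over all genes counted, 16.7% were above 1 in every library. Of 10 resident-like genes none was, and Stab1, a scavenger receptor, had ratios of 0.787, 0.705, 0.667 and 0.702. Of 14 genes of an Hmox1 and Gpnmb list none was called and 6 were above 1 in every library: Lpl, lipoprotein lipase, had 0.664, 0.485, 0.727 and 0.475, while Gpnmb had 1.81, 2.02, 2.13 and 1.55 and Plin2, a lipid droplet coat gene, 1.77, 1.90, 1.83 and 1.53. Of 13 complement and phagocytic receptor genes none was called, with a median ratio between 0.938 and 0.969. Of 13 stress and immediate-early genes, none was called and 12 were above 1 in every library, with a median ratio between 1.23 and 1.35, and Hspa1a had 1.52, 1.77, 1.96 and 1.99. The part of tissue handling in these was not tested.

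Along the whole range of the share, the levels changed by degrees. The summed type I genes, a list that leaves out the 4 rule genes, rose from 7300, 8449, 6309 and 8923 CPM in macrophages with none of the 4 genes, through 13621, 14490, 13016 and 14107 CPM in other macrophages with a share of 0.00966% to 0.0733%, to 19264, 22046, 19587 and 21402 CPM in the lowest of 4 equal groups of members, Q1 (shares of 0.0733% to 0.120%), and 43465, 37925, 37605 and 40441 CPM in the highest, Q4 (0.509% to 3.42%). Cxcl10 was concentrated at the top, with 3363, 2857, 2835 and 3838 CPM in Q4 and 381, 427, 650 and 892 CPM in Q1. Cxcl9 already stood at 1112, 2167, 1297 and 2462 CPM in other macrophages with a share of 0.00966% or more and at 1231, 1370, 1330 and 1694 CPM in Q4. The share is computed over 4 genes of the same type I program, so that its rise along the range is what the choice of members gives.

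**Figure D4:**
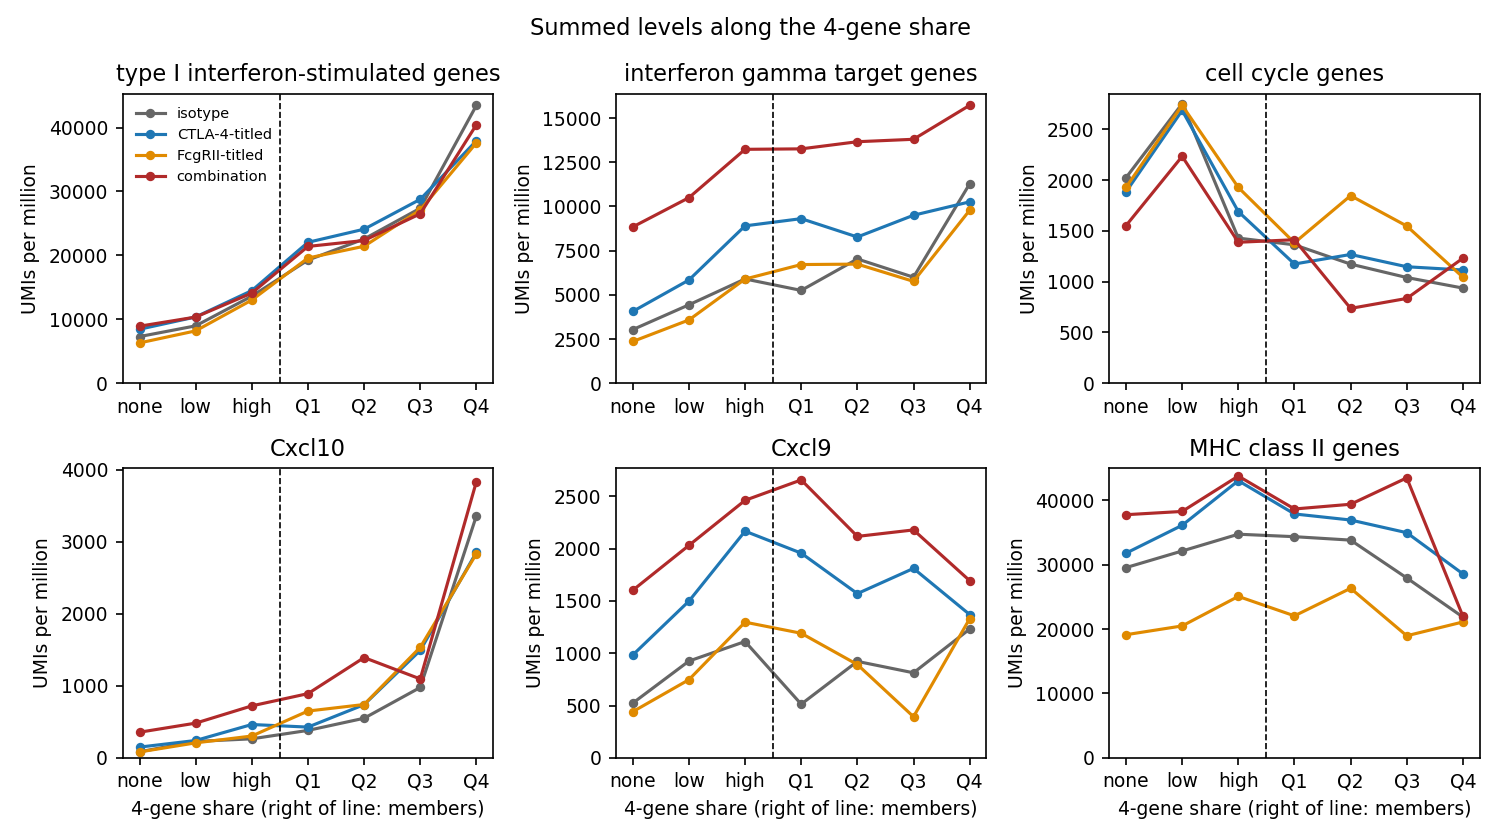
Summed levels (CPM, from 0) in 7 bins of the 4-gene share, left to right: no UMI, other macrophages with a share up to 0.00966% and above it, and the 4 groups of members (Q1 to Q4), 1 line per library. Type I genes and Cxcl10 climb to Q4, Cxcl9 does not climb with them, and cell cycle genes peak in the bin up to 0.00966%, where cells are also the deepest (median 23927, 26172, 28203 and 29512 UMIs, against 15273, 18867, 18988 and 19701 with no UMI), and are at 1429, 1690, 1928 and 1388 CPM in the bin next to Q1, against 1363, 1174, 1383 and 1413 CPM in Q1.

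Members were not uniform in another respect. Plac8, a gene of monocytes, was called higher, at 761, 404, 213 and 563 CPM in members and with ratios of 2.69, 2.43, 2.74 and 2.46. At least 10 Plac8 UMIs were found in 23.7%, 19.9%, 11.2% and 24.7% of members and in 12.2%, 9.0%, 4.08% and 12.9% of other macrophages. Set against the other members, these cells also had more Chil3, with ratios of 18.3, 26.9, 53.6 and 19.0, and more Ace, at 163, 83.7, 51.7 and 83.7 CPM against at most 4.92 CPM. Over all members, however, Chil3 had ratios to other macrophages of 1.27, 0.853, 0.646 and 0.431, below 1 in 3 libraries. The members with at least 10 Plac8 UMIs had a lower C1q share, with medians of 0.742%, 0.914%, 0.621% and 0.646% against 1.54%, 1.65%, 1.55% and 1.37%, and less Mmp12, a macrophage elastase gene, with ratios between 0.297 and 0.378. The minimum of 10 UMIs and these genes were chosen after values were seen. Ccr2, the receptor that draws monocytes into tissue, was not higher over all members, with ratios of 0.802, 0.762, 0.819 and 0.996.

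Within the members, each other library was then set against isotype, at a ratio of at least 2 or at most 0.5 among genes with at least 20 CPM in one of the pair. All 3 comparisons share the isotype library. CTLA-4-titled had 27 of 6962 genes higher (0.388%) and 10 lower (0.144%). FcgRII-titled had 17 of 7021 higher (0.242%) and 21 lower (0.299%). The combination had 100 of 7019 higher (1.42%) and 53 lower (0.755%). In other macrophages, 13 of 7320 genes were higher and 11 lower in CTLA-4-titled. In FcgRII-titled 5 of 7329 were higher and 12 lower there, and in the combination 135 of 7370 were higher and 56 lower. Where a gene had fewer than 3 UMIs in the smaller library its ratio was computed at a floor of 3 UMIs.

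Type I genes were at like levels in members of all libraries. None of 56 was called in any of the 3 comparisons, and the median ratio to isotype was 1.01 for CTLA-4-titled, 0.995 for FcgRII-titled and 0.896 for the combination, where that of all genes was 0.964, 0.990 and 0.943. In other macrophages the same medians were 1.11, 0.827 and 1.17. Isg15 had a ratio of combination to isotype of 1.14 in members and 1.71 in other macrophages, and Irf7, the factor that amplifies the type I response, of 0.996 and 1.54. Since members were taken above a fixed share of 4 genes of this program, equal levels among them are in part given by the rule.

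Few interferon gamma targets were called in the single-treatment libraries, and more in the combination. In CTLA-4-titled members 2 of 27 were higher, Nos2 with 2.17 and Il12rb1 with 2.07, both near the limit, against 0.388% of all genes counted. The median ratio was 1.17, and 1.39 in other macrophages. In FcgRII-titled members 1 of 26 was lower, Ciita with 0.482, against 0.299% of all genes counted. The medians there were 0.982 in members and 0.763 in other macrophages. In members of the combination, of 27 counted 9 were called higher and none lower, against 1.42% and 0.755% of all genes. Their median ratio was 1.61. In other macrophages of the combination 17 of 26 were called higher, with a median of 2.38. Over all genes counted, 135 of 7370 were higher there, with a median of 0.926. Nos2 stood at 231 CPM in isotype and 1247 CPM in the combination, a ratio of 5.39 in members and 10.2 in other macrophages. Cd274 had ratios of 2.53 and 3.70, Cxcl9 of 2.57 and 2.60, and Ccl5, a chemokine for T cells, of 2.03 and 5.63. The share of members with at least 3 Nos2 UMIs, at one depth, was 17.8%, 32.3%, 16% and 53.8%, against 5.92%, 10.7%, 4.39% and 38.2% of other macrophages, and without thinning 25%, 40.7%, 23.4% and 66.2% against 10.3%, 15.8%, 8.08% and 48.0%. In T cells the unthinned share was at most 15.7%, in the combination. The gap in Nos2 between members and other macrophages was thus present in every library, and the level in other macrophages of the combination exceeded that in members of isotype.

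**Figure D5:**
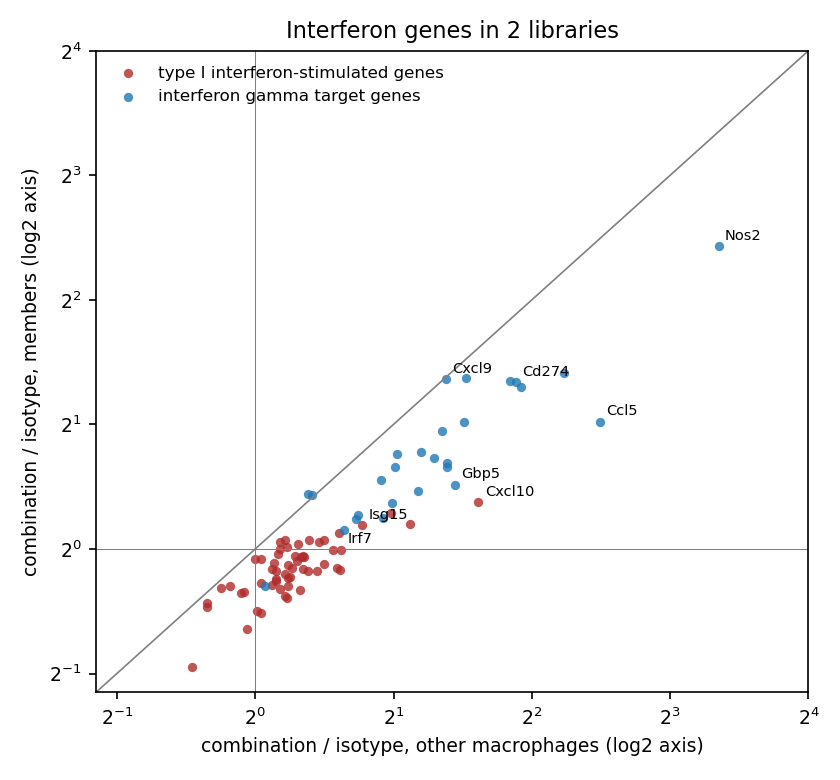
Ratio of the combination to isotype in other macrophages (x) and in members (y), both on log2 axes, for type I interferon-stimulated genes (red) and interferon gamma targets (blue), each point a gene. Type I genes lie around 1 in members, interferon gamma targets reach 5.39 for Nos2, and nearly all points lie below the diagonal.

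The 5 genes with the highest ratio of the combination were Marco, a scavenger receptor gene, S100a9, Il1f9, S100a8 and Inhba, with ratios in members of 65.1, 31.1, 22.2, 17.5 and 10.5. Marco had 2 UMIs in isotype (exact interval 26.8 to 811), and a single cell held 90% of its UMIs in the combination. S100a8 and S100a9, the calprotectin genes of neutrophils, had a UMI in 88 and 60 of the 352 members, at 156 and 154 CPM, with 90% of their UMIs in 32 and 18 cells, while Il1f9 was in 32 and Inhba in 87 cells. In other macrophages the ratios of S100a8 and S100a9 were 3.12 and 1.91. The 5 neutrophil markers summed to 194, 251, 228 and 513 CPM in members and to 190, 146, 142 and 329 CPM in other macrophages, with Csf3r the most abundant and Retnlg, a defining marker, at 0.425, 1.12, 0.597 and 1.98 CPM in members. The part of neutrophils or their RNA in these genes was not tested.

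The lowest ratios of the combination were those of Igkc with 0.0322, Slco2b1, a transporter gene, with 0.158, the heat shock genes Hspa1b with 0.203 and Hspa1a with 0.225, and Cbr2, a resident-like gene, with 0.232. Igkc encodes an antibody light chain, and its 411 UMIs in members of isotype lay in 11 cells, of which 7 held 90%. Hspa1b fell from 957 to 194 CPM and Hspa1a from 748 to 168 CPM, with ratios of 0.175 and 0.173 in other macrophages. The heat shock genes were lower in this library whether or not a cell was a member, and the part of handling was not tested.

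In CTLA-4-titled the highest ratios rested on few cells. Krt8 and Krt19, keratins of epithelial cells, with ratios of 58.9 and 34.6, and the lymphocyte chemokine Xcl1, with 55.2, each had 98.7% or more of their member UMIs in 1 cell, the same for both keratins and another for Xcl1. Cd163, with a ratio of 10.7, had 244 UMIs in 3 cells, and its ratio in other macrophages was 30.7, at 10.0 against 0.327 CPM. S100a9, with a ratio of 9.54, had 423 UMIs in 21 cells, 47.0% of them in 1, and its ratio in other macrophages was 0.304. The lowest were Cbfa2t3 with 0.372, Hp with 0.379, Klf4, a monocyte transcription factor gene, with 0.400, Rasgrp2 with 0.419 and Igkc with 0.426, of which Klf4 stood at 78.1 CPM in isotype and 31.3 CPM in CTLA-4-titled members and was lower in other macrophages too, with 0.520.

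FcgRII-titled had the same kind of upper end. Mcpt2, Tpsb2 and Mcpt1, proteases of mast cells, had 99.1% or more of their member UMIs in the same cell, with ratios of 136 for Mcpt2, 110 for Tpsb2, which had 1 UMI in isotype (58.8 to 13077), and 65.4 for Mcpt1, which had none and was set against a floor of 3 UMIs (lower end of the exact interval 52.6). Col6a2 and Col3a1, collagens, with ratios of 41.3 and 33.9, had 95.2% or more in another cell. When the cell richest in a gene was left out of the sum of that gene, 4 genes were higher than isotype. Its lowest ratios were those of Igkc with 0.00770 (6.48e-05 to 0.0144, on 1 UMI), Ace with 0.199, Plac8 with 0.280, Hp with 0.285 and Chil3 with 0.292. Plac8 had 761 CPM in isotype members and 213 CPM in FcgRII-titled members, and 0.274 as the ratio in other macrophages, and Ace had 0.253 there. The 4 monocyte genes of the list were all highest in members of isotype, with Chil3 at 157 CPM there. Their order over the other libraries differed: Ccr2 stood at 532, 318, 406 and 222 CPM in members, lowest in the combination. Vcan, below the minimum level, stood at 13.7, 4.36, 8.95 and 8.59 CPM, lowest in CTLA-4-titled.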

How the data were processed

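Single-cell libraries were prepared by the authors with the 10x Genomics Flex probe kit from sorted live CD45-positive tumor cells, 1 library per group. The deposited matrices hold UMI counts per gene and cell for 19059 probed features, not normalized. The headers of the matrices name Cell Ranger 7.2.0, and the submitters' processing notes name Cell Ranger 7.0.0 and mm10. The authors' later filters on doublets and low quality are not applied in these counts, and no column of another sample was present.

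Members and gene lists were chosen with earlier results of these data known. Of 28290 cells, 96 failed the filter on genes and mitochondrial UMIs. UMIs were summed over the cells of a library and given as CPM, counts scaled to a total of 1000000. A gene was counted at 20 CPM or more, and called at a ratio of 2 in all 4 libraries (members over other macrophages) or in 1 comparison (library over isotype). The rule for named genes took the 15 largest lowest ratios, the 10 smallest highest ratios, the 5 highest and 5 lowest called genes of each library comparison, and the ends of each list. Genes outside it are said to be chosen after their values were seen, or belong to a list. Ratios used a floor of 3 UMIs. Shares have exact binomial 95% intervals, ratios of summed counts exact conditional ones and ratios of shares approximate ones on the log scale, all for counting error only. For shares of cells with a UMI, cells were thinned once to 8807 UMIs, the 10th percentile of macrophages, and shallower cells were left out. With 1 library per group no p-value was computed. Doublets were not removed in the values reported.

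Alternatives changed the cut, depth, cell filters, doublet scores (Scrublet), rule genes, scaling, minimum level and ratio. Scripts were tested on simulated data and run with Python 3.11.15, numpy 2.4.6, scipy 1.17.1, pandas 2.3.3, scanpy 1.11.5 and matplotlib 3.10.9. Promoter windows came from RefSeq (GRCm38.p6). Some genes are not reported here.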

Additional observations from a re-analysis of the deposited data

Results flagged for a closer look

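S100a8 and S100a9 were picked out because members stood below other macrophages in one library and above them in another. For S100a8 the ratio of members to other macrophages was 0.305 in isotype and 4.07 in CTLA-4-titled, and for S100a9 it was 0.139 and 4.36. In FcgRII-titled and the combination it was 2.05 and 1.71 for S100a8 and 2.46 and 2.26 for S100a9, so that isotype alone was below 1. In CTLA-4-titled members, 90% of the UMIs of S100a8 lay in 7 cells and of S100a9 in 4 cells. With 1 library per group the difference was not tested.

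Ifnb1 was also found in cells that the comparisons did not use. Outside the macrophages, 51 of 14055 cells had an Ifnb1 UMI and held 489 UMIs, and 28 of these cells passed the cut on the 4-gene share.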

How the results depend on the processing

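No paired analysis between groups was possible because each group has 1 library. Members and other macrophages were compared within each library. Of the counts and ratios that answer a comparison, 181 values under an alternative kept their side of the limit or stayed within 1.5 times, 45 counts moved by more than that, 4 ratios passed counting error, 4 fell within it and 1 reversed. The 93 genes higher in members became 234 at a ratio of 1.5. The 4 genes lower in members became 16 at the top 5%, 0 at the top 20%, after thinning, without Ifit2 in the share, with the top 10% taken within each library or with scaling by the median of ratios, 9 without the cells of highest doublet score or without Ifit1, 7 without Ifit3, 2 without Rsad2 or with C1q genes at 1% or more, 14 at 5 CPM, 1 at 50 CPM and 87 at a ratio of 1.5. Interferon gamma targets higher in members, 0 as reported, were 1 at the top 5%, within each library, under the other scaling and at 5 CPM, and 10 at a ratio of 1.5. The ratio of shares of the combination over isotype passed counting error at the top 20% and after thinning (1.22 in both), without doublet scores (1.15) and without Ifit3 (1.19). That over CTLA-4-titled was 1.00 at the top 20%, where its direction turned, and lay within counting error after thinning (0.923), without doublet scores (0.875), with C1q at 1% (0.856) and without Ifit3 (0.900).

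Within members, the genes higher and lower than isotype were 62 and 69 at 5 CPM, 16 and 6 at 50 CPM and 59 and 68 at a ratio of 1.5 for CTLA-4-titled. For FcgRII-titled they were 101 and 96, 7 and 11, and 60 and 88, and the higher ones were 11 at the top 5%, the top 20% and without Rsad2, 10 without doublet scores, 4 with C1q at 1% and 27 without Ifit3. For the combination they were 166 and 155 at 5 CPM and 243 and 240 at a ratio of 1.5, and 33 were lower at 50 CPM. Leaving out the richest cell of each gene, an alternative chosen after seeing the data, gave 17 genes lower in members and 4 higher in FcgRII-titled. Genes that rest on few cells turned direction: Mcpt2 was 0.589 at the top 5%, 0.414 at the top 20% and 0.369 after thinning, Mcpt1 0.413 at the top 20% and 0.372 after thinning, Col3a1 0.883 at the top 5%, Col6a2 0.996 without doublet scores and 0.841 with C1q at 1%, S100a9 in CTLA-4-titled 0.716 at the top 20%, and Cd163 0.168 within each library. The cause was not tested. The mean over cells gave no ratio for Mcpt1, which was at 0 in isotype members. Of members, 5.38%, 4.96%, 4.90% and 4.55% were among the 5% of cells with the highest doublet score, against 4.08%, 2.59%, 3.81% and 3.07% of other macrophages.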

Other observations

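Cells outside the macrophages passed the same cut in 2045 of 14055 cases (14.5%). Among cells with at least 1% of UMIs on S100a8 and S100a9 and under 0.2% on C1q genes, 210 of 420 passed it (50%), with 36.2%, 47.6%, 34.4% and 56.2% in isotype, CTLA-4-titled, FcgRII-titled and the combination. Their median depth was 3225 UMIs.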
